A study of Mus musculus with 4 samples.

Results

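Cone phototransduction genes encode the proteins with which cone photoreceptors turn absorbed light into an electrical signal. The set examined here held 10 genes chosen by name, 2 cone opsins (Opn1sw, Opn1mw), 3 subunits of cone transducin (Gnat2, Gnb3, Gngt2), 2 subunits of the cone phosphodiesterase (Pde6c, Pde6h), 2 subunits of the cone cyclic nucleotide-gated channel (Cnga3, Cngb3) and cone arrestin (Arr3). All 10 were found, each at 1 locus, among 22558 gene symbols. Their levels were compared in RNA-seq libraries of whole mouse retina on a C57/BL/6J background, from Fezf2KO mice and from control littermates whose genotype is labelled wildtype, at postnatal day 14 (P14) and postnatal day 7 (P7). The labels do not describe the knockout allele, the sex of the mice or whether retinas were pooled. The groups were Fezf2KO at P14, control at P14, Fezf2KO at P7 and control at P7, with 1 library each, so no group had a replicate. The study asked what the transcription factor Fezf2 does in retinal development.

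In a cone, light isomerizes the chromophore of an opsin, the opsin activates transducin, and the alpha subunit of transducin relieves the inhibition of a phosphodiesterase by its small inhibitory subunit. The phosphodiesterase then breaks down cyclic GMP, cyclic nucleotide-gated channels in the outer segment close, and arrestin binds the phosphorylated opsin to end the response. Rods use a parallel set of proteins made from paralogous genes. In the mouse retina cones are a small minority of photoreceptors, most cones carry both opsins in proportions that vary from the upper to the lower retina, and the short-wavelength opsin appears earlier in development than the middle-wavelength opsin. Loss of Cnga3, Cngb3, Gnat2 or Pde6c function in people abolishes cone vision.

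Levels are given in FPKM, fragments scaled to transcript length and to the mapped fragments of the library, with the lower and upper bounds that were deposited beside each level. The files hold no fragment counts, so the depth of the libraries is unknown. The bounds lay a median of 13.0% to 15.5% either side of their middle for loci at 1 to 10 FPKM and 6.31% to 7.78% for loci above 10 FPKM, and they cover counting error only, not differences between mice. Of the 40 values of the 10 cone genes, 15 lay above their own upper bound, in Opn1mw, Arr3, Gnat2, Gnb3 and Pde6h, so bounds were compared only with bounds. Higher and lower are used below for genes whose bounds stood apart between libraries, unless a level alone is given. Fezf2 stood at 0.126 FPKM in KO retina against 4.02 FPKM in control retina at P14, and at 0.592 FPKM in KO retina against 8.32 FPKM in control retina at P7, with bounds apart at both ages. Markers of rods (Pde6b), bipolar cells (Grm6), Mueller glia (Rlbp1), amacrine cells (Slc6a9) and horizontal cells (Lhx1) were detected in all 4 libraries. Markers of tissue next to the retina were also present, most in the control library at P14 and, for lens and vitreous, also in the KO library at P7. The defining lens genes Cryba1 and Crygs were at 0 in the KO library at P14, and Crygs also in the control library at P7. Summed over 7 lens and vitreous genes the level was 6.81 FPKM in KO retina against 49.7 FPKM in control retina at P14, and 30.2 FPKM in KO retina against 5.79 FPKM in control retina at P7. Summed over 12 pigment epithelium genes it was 164 FPKM in KO retina against 225 FPKM in control retina at P14, and 126 FPKM in KO retina against 107 FPKM in control retina at P7. Over 5 blood genes it was 356 FPKM in KO retina against 1180.0 FPKM in control retina at P14, and 339 FPKM in KO retina against 291 FPKM in control retina at P7. Whole retina was measured, so fewer cones and less RNA per cone cannot be told apart.

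RefSeq promoter sequences (build GRCm38.p6, 250 bases before to 50 bases after a start site) were at hand for 6 of the 10 genes. Those of both opsins, of Gnat2 and of Arr3 are shown because Opn1mw and Gnat2 had the largest age differences in the set and Arr3 and Opn1sw the largest genotype differences at P14 and at P7, and because 3 of the 4 hold a 5-base core to which the photoreceptor homeodomain proteins Crx and Otx2 can bind. Capitals mark TAATC, on either strand, and AGGTCA, on either strand, a half-site of nuclear receptors.
Opn1sw (chr6:29380464-29380763, minus strand): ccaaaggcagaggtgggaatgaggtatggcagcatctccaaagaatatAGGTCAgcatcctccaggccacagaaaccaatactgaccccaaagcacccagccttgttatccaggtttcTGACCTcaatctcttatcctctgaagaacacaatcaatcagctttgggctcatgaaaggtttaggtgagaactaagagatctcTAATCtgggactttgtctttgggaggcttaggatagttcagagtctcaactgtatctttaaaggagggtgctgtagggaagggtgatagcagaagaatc
Opn1mw (chrX:74127216-74127515, plus strand): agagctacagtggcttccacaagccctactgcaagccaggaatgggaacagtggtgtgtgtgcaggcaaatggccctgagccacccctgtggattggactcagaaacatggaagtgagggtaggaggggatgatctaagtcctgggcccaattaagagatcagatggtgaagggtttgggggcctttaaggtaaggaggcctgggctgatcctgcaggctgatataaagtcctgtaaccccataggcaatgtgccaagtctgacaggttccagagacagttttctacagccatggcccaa
Arr3 (chrX:100605247-100605546, plus strand): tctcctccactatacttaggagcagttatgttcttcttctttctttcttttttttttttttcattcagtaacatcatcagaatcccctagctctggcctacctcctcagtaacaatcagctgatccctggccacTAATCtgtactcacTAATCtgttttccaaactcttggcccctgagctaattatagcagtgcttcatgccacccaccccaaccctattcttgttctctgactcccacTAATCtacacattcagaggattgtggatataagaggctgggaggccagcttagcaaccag
Gnat2 (chr3:108092816-108093115, plus strand): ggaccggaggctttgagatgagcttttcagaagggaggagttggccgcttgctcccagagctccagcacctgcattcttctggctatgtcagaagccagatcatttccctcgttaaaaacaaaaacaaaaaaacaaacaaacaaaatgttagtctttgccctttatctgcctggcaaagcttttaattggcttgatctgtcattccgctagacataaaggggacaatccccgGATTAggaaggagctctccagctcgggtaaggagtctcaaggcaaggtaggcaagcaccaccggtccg
With the first transcribed base as position 0, Arr3 had TAATC at positions -116, -102 and -10, and Opn1sw had it at -49. In Gnat2 the match was on the opposite strand and extended to TAATCC, starting at position -19. The Opn1sw promoter had AGGTCA at -202 and, on the opposite strand, at -132, and TGCTGA, part of the binding element of the rod factor Nrl, on the opposite strand at -199, where it overlaps the first AGGTCA. The Opn1mw window held none of these motifs, nor did those of Pde6h and Cnga3, the last with 2 start sites. Of 32851 mouse promoters of the same length, 22.0% held TAATC, 0.658% held it 3 or more times, 7.06% held TAATCC, 16.3% held AGGTCA and 19.5% held TGCTGA.

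The cone genes spanned about 2 orders of magnitude in level in every library. At P14 the order was the same in both genotypes. Pde6h was highest at 432 FPKM in KO retina against 362 FPKM in control retina, followed by Opn1sw, Gngt2, Opn1mw, Gnb3, Gnat2, Arr3, Pde6c and Cnga3, and Cngb3 was lowest at 3.65 FPKM in KO retina against 4.54 FPKM in control retina. Opn1sw and Gngt2 had overlapping bounds in both P14 libraries, Arr3 and Pde6c in the KO library, and Opn1mw and Gnb3, and Cnga3 and Cngb3, in the control library. At P7 Gnb3 was highest in both genotypes, followed by Gngt2, Pde6h, Opn1sw, Gnat2, Pde6c and Arr3, and Opn1mw, Cnga3 and Cngb3 had the 3 lowest levels, between 2.93 and 3.70 FPKM, with bounds that overlapped from each to the next. Together the 10 genes held 0.304% of the summed FPKM of the KO and 0.290% of that of the control library at P14, and 0.192% in the KO and 0.161% in the control library at P7.

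**Figure D1:**
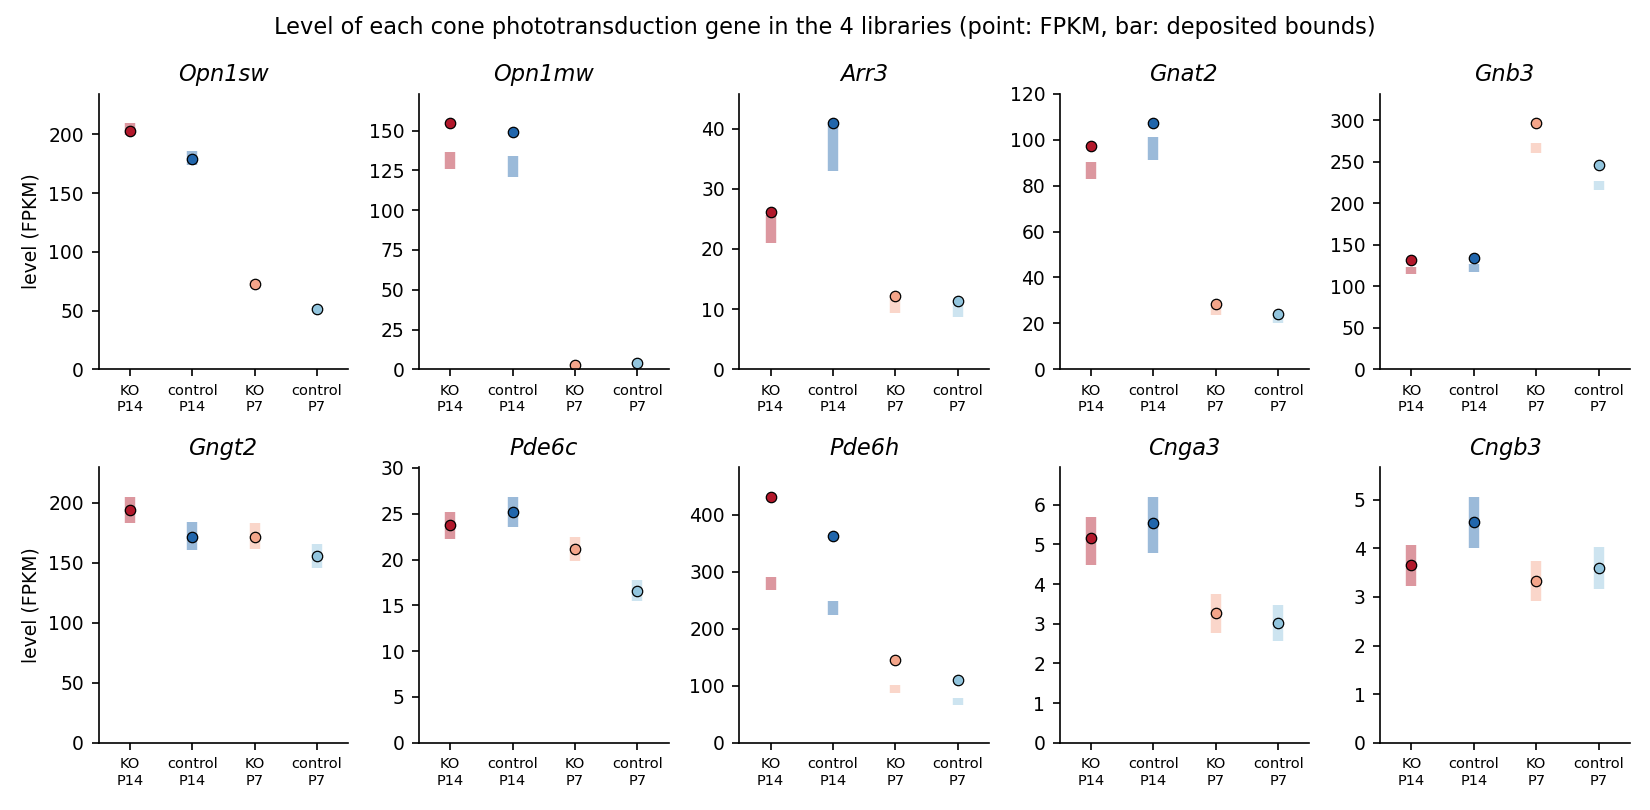
Level in FPKM (y axis, linear, from 0) of each of the 10 cone phototransduction genes in the KO and control libraries at P14 and P7 (x axis), 1 library per group, with points at the deposited level and bars between the deposited bounds. Opn1mw stands near 150 FPKM in both P14 libraries and below 4 FPKM in both P7 libraries, Gnb3 is lower at P14 than at P7, and the Arr3 point of the KO library at P14 lies below that of the control library.

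Opn1mw had the largest age difference of the set, and Opn1sw was also higher at P14. Opn1mw, the middle-wavelength opsin gene (chromosome X, bases 71372805 to 71396094 of mm9), stood at 155 FPKM in KO retina against 149 FPKM in control retina at P14, and at 2.93 FPKM in KO retina against 3.70 FPKM in control retina at P7. Both P14 libraries lay far above both P7 libraries, with a P14 to P7 ratio of 52.8 in KO and 40.3 in control retina. Opn1mw ranked 27 of 13195 genes by its log2 difference between the ages in KO retina and 23 of 13281 in control retina. Opn1sw, the short-wavelength opsin gene (chromosome 6, bases 29326671 to 29330513 of mm9), stood at 202 FPKM in KO retina against 179 FPKM in control retina at P14, and at 72.9 FPKM in KO retina against 51.0 FPKM in control retina at P7. Its P14 to P7 ratio was 2.78 in KO and 3.51 in control retina. The Opn1sw locus overlaps that of Calu, which lay between 46.3 and 59.2 FPKM in the 4 libraries, and without strand information reads of the shared stretch cannot be told apart. At P7 Calu was also higher in KO retina, at 59.2 FPKM against 54.2 FPKM in control retina (bounds 55.2 to 59.3 and 50.5 to 54.4). Its part in the Opn1sw values was not tested. Opn1mw made up 43.3% of the summed cone opsin FPKM in the KO and 45.5% in the control library at P14, and 3.87% in the KO (2.52% to 5.17% by the bounds) and 6.77% in the control library (4.63% to 8.06%) at P7. The ranges of the genotypes overlapped at P7, and at P14 as well, where the bounds gave 37.5% to 40.7% in the KO and 39.4% to 43.5% in the control library.

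**Figure D2:**
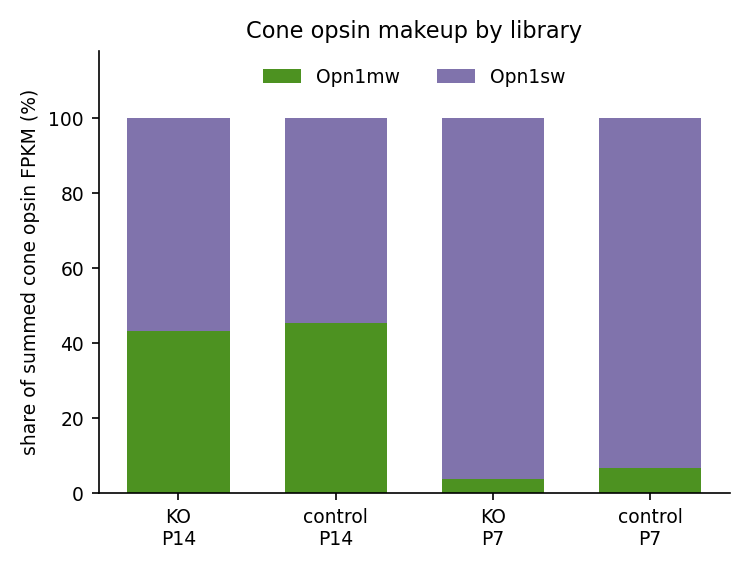
Share of the summed FPKM of the cone opsin genes held by Opn1mw (green) and Opn1sw (purple) in each library (x axis), in percent (y axis, from 0). The Opn1mw share is 43.3% in the KO and 45.5% in the control library at P14, and 3.87% in the KO and 6.77% in the control library at P7.

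The transducin subunits went different ways with age. Gnat2, the alpha subunit (chromosome 3, bases 107895986 to 107904203 of mm9), was at 97.1 FPKM in KO retina against 107 FPKM in control retina at P14, and at 28.2 FPKM in KO retina against 24.1 FPKM in control retina at P7. It was thus more than 3 times as high at P14 in both genotypes, with ratios of 3.44 in KO and 4.45 in control retina. Gnb3, the beta subunit (chromosome 6, bases 124784258 to 124790293 of mm9), which ON bipolar cells also use, was at 132 FPKM in KO retina against 135 FPKM in control retina at P14, and at 297 FPKM in KO retina against 246 FPKM in control retina at P7. It was the only 1 of the 10 genes that was lower at P14, at 44.4% of the P7 level in KO and 54.7% in control retina. Of 12 ON bipolar markers, 8 were higher and 3 lower at P14 in each genotype. The shares of all genes tested were 28.7% higher and 39% lower in KO retina, and 27.2% and 37.3% in control retina. The summed level of the 12 markers was 1059 FPKM in KO retina against 999 FPKM in control retina at P14. At P7 it was 523 FPKM in KO retina against 528 FPKM in control retina. Gngt2, the gamma subunit (chromosome 11, bases 95703609 to 95707045 of mm9), varied least, at 194 FPKM in KO retina against 172 FPKM in control retina at P14, and at 172 FPKM in KO retina against 155 FPKM in control retina at P7. Its locus overlaps that of Abi3, which lay between 1.01 and 1.76 FPKM. The ratios of the subunits within a library differed between the ages. Gnb3 stood at 1.36 times the Gnat2 level in the KO and 1.26 times in the control library at P14, against 10.5 times in the KO and 10.2 times in the control library at P7. The rod counterparts had the same direction, with Gnb1 at 0.300 times the Gnat1 level in the KO and 0.305 times in the control library at P14, and at 10.7 times in the KO and 8.51 times in the control library at P7. Gnb1 itself differed little between the ages, at 1572 FPKM in KO and 1517 FPKM in control retina at P14, and 1146 FPKM and 1109 FPKM at P7. Gnat1 was at 5236 FPKM and 4979 FPKM at P14, and 107 FPKM and 130 FPKM at P7.

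Of the phosphodiesterase genes, Pde6h was higher at P14 in both genotypes and Pde6c in control retina. Pde6h, the inhibitory subunit (chromosome 6, bases 136903044 to 136912004 of mm9), was at 432 FPKM in KO retina against 362 FPKM in control retina at P14, and at 144 FPKM in KO retina against 109 FPKM in control retina at P7, a ratio of the ages of 2.99 in KO and 3.31 in control retina. Pde6c, the catalytic subunit (chromosome 19, bases 38207271 to 38258441 of mm9), was at 23.7 FPKM in KO retina against 25.2 FPKM in control retina at P14, and at 21.1 FPKM in KO retina against 16.6 FPKM in control retina at P7. Its P14 and P7 bounds overlapped in KO retina and did not in control retina, where the ratio was 1.52. Pde6h stood at 18.2 times the Pde6c level in the KO and 14.3 times in the control library at P14, and at 6.84 times in the KO and 6.60 times in the control library at P7. Taken from the middle of the bounds, which lie below the Pde6h levels, these multiples were 11.8 in the KO and 9.34 in the control library at P14, and 4.49 in the KO and 4.35 in the control library at P7.

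The channel genes were low at both ages. Cnga3, the principal subunit (chromosome 1, bases 37276106 to 37320229 of mm9), was at 5.15 FPKM in KO retina against 5.54 FPKM in control retina at P14, and at 3.28 FPKM in KO retina against 3.02 FPKM in control retina at P7. Cngb3, the modulatory subunit (chromosome 4, bases 19207997 to 19437770 of mm9), was at 3.65 FPKM in KO retina against 4.54 FPKM in control retina at P14, and at 3.33 FPKM in KO retina against 3.599 FPKM in control retina at P7. Cnga3 was higher at P14 in both genotypes, and the bounds of Cngb3 overlapped between the ages in both. Cngb3 stood at 0.708 times the Cnga3 level in the KO library at P14, with a range of 0.567 to 0.906 by the bounds, and the ranges of the other 3 libraries included 1. Arr3, the arrestin (chromosome X, bases 97800836 to 97813832 of mm9), was at 26.2 FPKM in KO retina against 40.9 FPKM in control retina at P14, and at 12.2 FPKM in KO retina against 11.3 FPKM in control retina at P7. Its P14 to P7 ratio was 2.16 in KO and 3.63 in control retina.

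In all, 7 of the 10 genes were higher and 1 was lower at P14 than at P7 in KO retina, where 28.7% of all genes tested were higher and 39% lower. In control retina the counts were also 7 and 1, where 27.2% of genes were higher and 37.3% lower. The genes with overlapping bounds were Pde6c and Cngb3 in KO and Gngt2 and Cngb3 in control retina. On the log2(FPKM + 1) scale, which understates differences of low genes, 5 were at least 1.5-fold higher and 1 lower in KO retina (17.7% and 21.8% of all genes) and 6 were higher and 1 lower in control retina (16.6% and 21.3%). The median log2 difference of the 10 genes between the ages was 0.79 in KO and 1.21 in control retina, beside -0.09 over all genes in each genotype. A limma fit of genotype and age over the 4 libraries called 8 of the 10 genes for age at a Benjamini-Hochberg adjusted p below 0.05, as it did 67.8% of 13057 genes tested (28.9% higher and 38.9% lower). The genes that rose were Opn1mw (log2 difference 5.15 ± 0.10 SE, adjusted p = 3.72e-06, limma), Gnat2 (1.93), Pde6h (1.65), Opn1sw (1.63), Arr3 (1.41 ± 0.17 SE), Cnga3 (0.61) and Pde6c (0.37), and Gnb3 fell by 1.02. Gngt2 (0.16, adjusted p = 0.0688, limma) and Cngb3 (0.19, adjusted p = 0.163, limma) did not pass. The fit has 1 residual degree of freedom and leans on a spread shared between genes, and the Pde6c call was lost on a TPM scale (adjusted p = 0.0708) and with no floor on expression (0.105), in a range of 0.00694 to 0.105 over the alternatives.

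**Figure D3:**
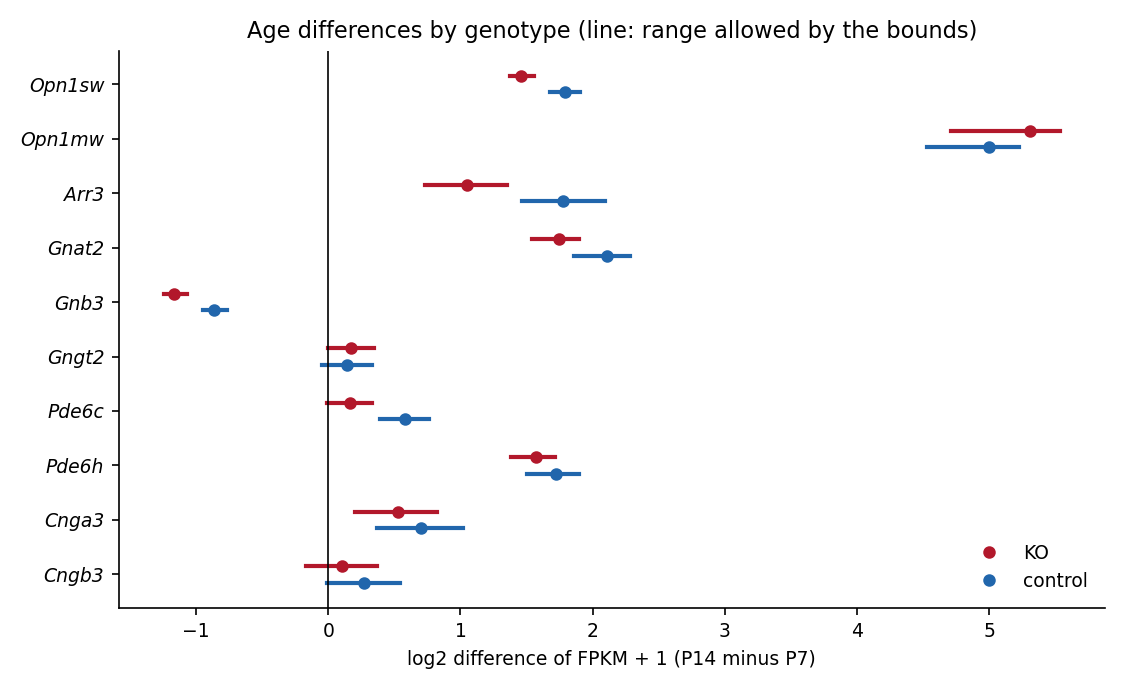
Log2 difference of FPKM + 1 between P14 and P7 (x axis, P14 minus P7) for each cone phototransduction gene (y axis) in KO (red) and control (blue) retina, with lines for the range that the bounds allow. Opn1mw lies furthest to the right, at 5.31 in KO and 4.998 in control retina, and Gnb3 lies left of 0 in both.

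KO and control retina were compared at each age. At P14 some cone genes were lower and some higher in KO retina. Arr3 was lower, at 26.2 FPKM in KO retina against 40.9 FPKM in control retina (bounds 21.0 to 25.6 in KO and 33.0 to 40.6 in control), which is 64.0% of the control level and a log2 difference of -0.62. Gnat2 was also lower, at 90.5% of the control level (81.9% to 98.9% by the bounds), whereas Pde6h was higher at 119% (108% to 130%) and Opn1sw at 113% (107% to 121%). The other 6 genes had overlapping bounds, with log2 differences from -0.25 for Cngb3 to 0.17 for Gngt2. Thus 2 genes were higher and 2 lower, where 7.37% of all genes tested were higher and 8.18% lower. Genes at higher levels have narrower bounds, and among those at 10 FPKM or more the shares were 12.1% and 9.11%. Arr3 was the only 1 of the 10 beyond 1.5-fold, on the lower side, as were 1.5% of all genes, and 0 were on the higher side, as were 0.879%. The median log2 difference of the 10 genes was -0.06, beside 0.00 for all genes, with 4 of the 10 above 0, as were 50.7% of all genes, and 6 below, as were 49.3%. In the same libraries 8 of 10 tested pigment epithelium genes, 3 of 4 lens and vitreous genes and 5 of 5 blood genes were lower in KO retina, and their part in the cone gene values was not tested.

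At P7 the cone genes that differed were higher in KO retina. Opn1sw was at 72.9 FPKM in KO retina against 51.0 FPKM in control retina (bounds 70.5 to 76.3 in KO and 48.9 to 53.6 in control), 143% of the control level and a log2 difference of 0.51. Pde6h was at 132% of the control level (113% to 154% by the bounds), Pde6c at 127% (112% to 146%) and Gnb3 at 121% (115% to 127%). These 4 genes were higher and 0 were lower, where 7.26% of all genes tested were higher and 6.09% lower, and where 11% and 6.01% of genes at 10 FPKM or more were. Gnat2 stood at 117% of the control level, Gngt2 at 111%, Cnga3 at 109%, Arr3 at 108%, Cngb3 at 92.6% and Opn1mw at 79.3%, all within overlapping bounds. The range for Opn1mw, 46.0% to 148%, was the widest of the set. Beyond 1.5-fold there were 0 genes of the set, where 0.725% of all genes were higher and 1.25% lower. The median log2 difference was 0.18, beside 0.01 for all genes, with 8 above and 2 below 0, where 52.2% of all genes were above and 47.8% below 0. Opn1sw and Pde6h were thus the genes of the set that were higher in KO retina at P14 as well as at P7. At the younger age, 3 of 8 tested pigment epithelium genes, 5 of 6 lens and vitreous genes and 1 of 5 blood genes were also higher in KO retina.

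**Figure D4:**
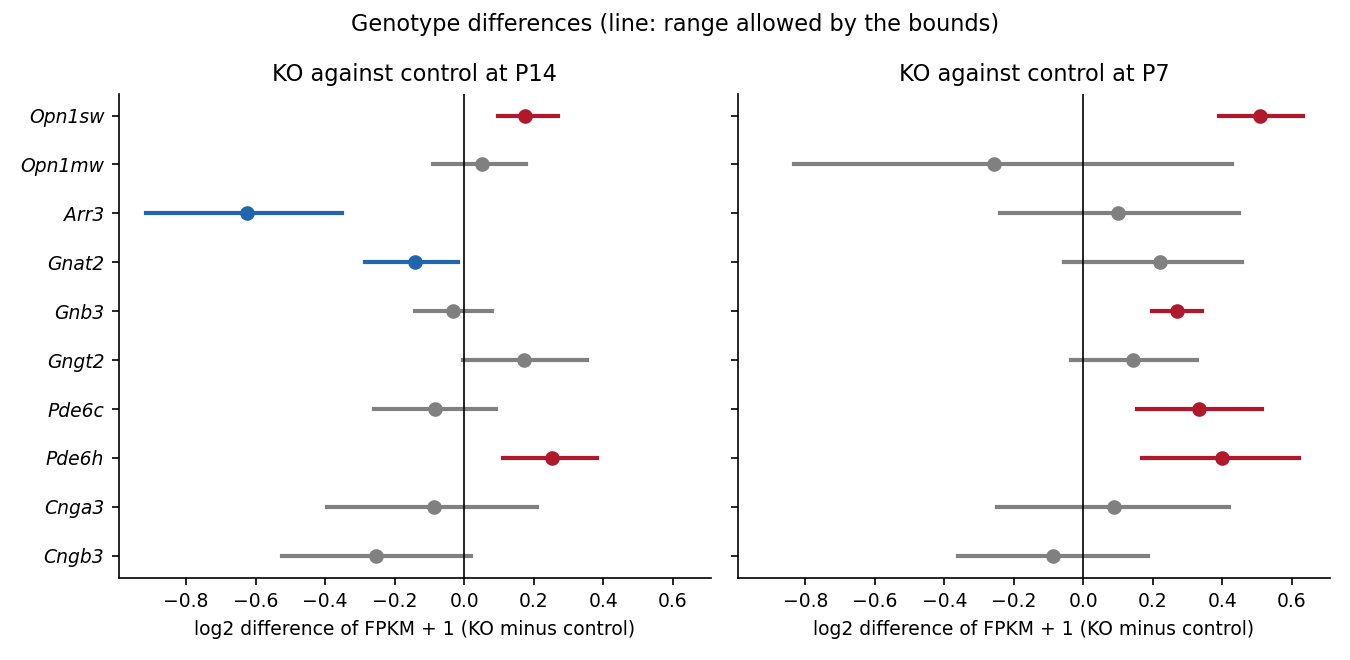
Log2 difference of FPKM + 1 between KO and control libraries (x axis, KO minus control) at P14 (left) and P7 (right) for each cone phototransduction gene (y axis), with lines for the range that the bounds allow, red where the KO library was higher, blue where it was lower and grey where bounds overlapped. Arr3 at P14 lies furthest from 0, at -0.62, and Opn1sw at P7 lies furthest to the right, at 0.51.

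Over both ages, limma called 0 of the 10 genes for genotype, as it called 0.26% of 13057 genes tested. At an unadjusted p below 0.05 there were 3 of the 10, where 7.31% of all genes were, and 2 of the 10 with no floor, on a TPM scale or with no variance trend. These 3 were Pde6h (log2 difference 0.33 ± 0.07 SE, adjusted p = 0.479, limma), Opn1sw (0.34 ± 0.09 SE, adjusted p = 0.582, limma) and Gngt2 (0.16 ± 0.06 SE, adjusted p = 0.68, limma), each with a level above that of the control library at both ages. The spread in this fit includes any change of the genotype difference with age. Arr3, with -0.62 at P14 and 0.10 at P7, had an estimate of -0.26 ± 0.17 SE (adjusted p = 0.748, limma). Over the alternatives the lowest adjusted p of the set was 0.124 to 0.793.

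Put the other way, the age differences of 8 of the 10 genes were smaller in KO than in control retina, or, for Gnb3, more negative, where 49% of all genes had a genotype difference that was lower at P14 than at P7. Opn1mw and Gngt2 were the exceptions. In Arr3, Gnat2, Gnb3 and Pde6c the KO level lay below the control level at P14 and above it at P7, with bounds apart at 1 of the ages. Of all genes, 9.99% had genotype differences of opposite sign with bounds apart at 1 or both ages, and 5.69% had them with the KO level below at P14. The ranges allowed by the bounds did not overlap for 4 genes: Opn1sw (1.37 to 1.56 in KO and 1.68 to 1.91 in control retina), Arr3 (0.73 to 1.35 in KO and 1.46 to 2.096 in control retina), Pde6c (-0.01 to 0.33 in KO and 0.39 to 0.76 in control retina) and Gnb3 (-1.24 to -1.07 in KO and -0.95 to -0.76 in control retina). In all 4 the age difference was lower in KO retina, as was so for 2.91% of all genes, and in 0 of the 10 was it higher beyond the ranges, as for 1.88%. The median of the genotype difference at P14 minus that at P7 was -0.24 for the cone genes and 0.09 for the 9 rod counterparts. For cone genes outside phototransduction it was 0.08, with 3 of 7 tested below 0. With 1 library per group this difference has no test. Markers of neighbouring tissue moved the same way as the cone phototransduction genes and further. The median was -0.80 for 8 tested pigment epithelium genes, -3.53 for 4 lens and vitreous genes and -1.84 for 5 blood genes, and 0 of these genes went the other way. Their part in the cone gene values was not tested.

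Rods supply most photoreceptor RNA in the mouse retina, and the ratio of a cone gene to its rod counterpart within a library does not depend on how libraries are scaled to each other. At P14 the median of 8 such ratios was 2.36% in the KO and 2.58% in the control library, and at P7 it was 11.2% in the KO and 8.49% in the control library. Gnat2 stood at 1.85% of the level of Gnat1, the rod transducin alpha gene, in the KO and 2.15% in the control library at P14, and at 26.3% in the KO and 18.5% in the control library at P7. Arr3 stood at 1.01% of the level of Sag, the rod arrestin gene, in the KO and 1.70% in the control library at P14, and at 1.02% in the KO and 1.08% in the control library at P7. The range of the Arr3 ratio by the bounds in the control library at P14, 1.54% to 1.92%, lay above those of the other 3 libraries, of which the highest reached 1.24%. Between the ages 7 of the 8 ratios were lower at P14 in KO retina, with Arr3 to Sag overlapping, and in control retina 5 were lower and that of Arr3 to Sag was higher, the largest log2 change being that of Gnat2 to Gnat1 (-3.83 in KO and -3.10 in control retina). Between the genotypes the ratios of Arr3, Gnat2 and Cngb3 were lower and that of Gngt2 was higher in KO retina at P14, and those of Gnat2, Gnb3, Pde6c and Pde6h were higher at P7, each with the other 4 ranges overlapping, and with a median log2 change of -0.11 at P14 and 0.22 at P7.

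**Figure D5:**
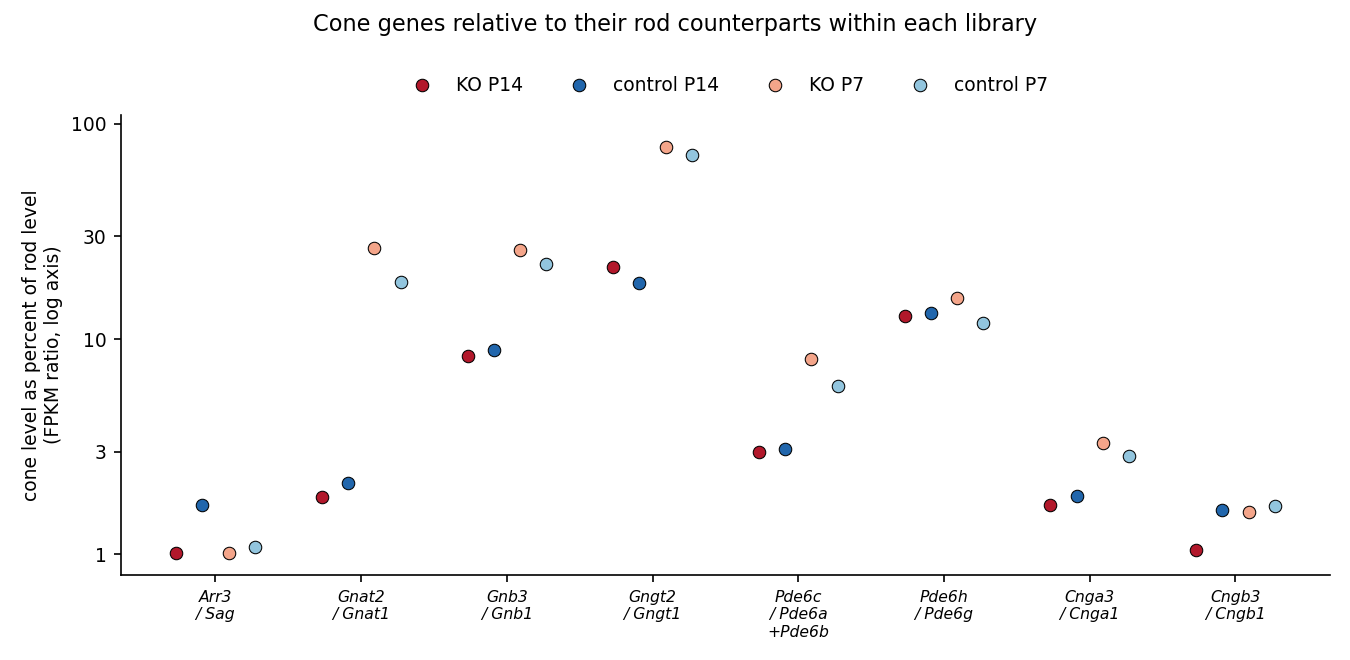
Level of each cone phototransduction gene as a percent of the level of its rod counterpart in the same library (y axis, log scale, FPKM ratio) for 8 pairs (x axis) in the KO and control libraries at P14 and P7, 1 library per point. The transducin pairs lie lower at P14 than at P7, and the Arr3 to Sag ratio of the control library at P14, at 1.70%, lies above the other 3.

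Of the 9 rod counterparts themselves, 5 were higher and 2 lower in KO retina at P14, with log2 differences from -0.10 to 0.31 and a median of 0.05. Of all genes tested 7.37% were higher and 8.18% lower, and of those at 10 FPKM or more 12.1% and 9.11%. The rod genes stand at high levels with narrow bounds, so differences as small as 0.05 for Gnb1 counted. At P7, 2 were higher and 2 lower, with a median of 0.02, where 7.26% of all genes were higher and 6.09% lower. Sag was at 2592 FPKM in KO retina against 2404 FPKM in control retina at P14 (log2 difference 0.11), where Arr3 was lower. Gnat1 was at 107 FPKM in KO retina against 130.3 FPKM in control retina at P7 (-0.28), where Gnat2 was at 28.2 FPKM in KO and 24.1 FPKM in control retina. The difference between the cone and rod lists was not tested.

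Other genes of the photoreceptor response were read from a list of 19 for shutoff, calcium feedback and channels, several of them used by rods and cones alike. At P14, 11 were higher and 3 lower in KO retina, with a median log2 difference of 0.07. Of all genes tested 7.37% were higher and 8.18% lower, and of those at 10 FPKM or more 12.1% and 9.11%. Cacna1f was the only 1 of the 19 beyond 1.5-fold. It was lower, at 11.5 FPKM in KO retina against 18.6 FPKM in control retina (log2 difference -0.64). Guca1a, a guanylate cyclase activator used in both kinds of photoreceptor, was at 667 FPKM in KO retina against 582.2 FPKM in control retina (log2 difference 0.20), and Guca1b, another such activator, at 899 FPKM in KO retina against 820 FPKM in control retina (0.13). At P7, 4 were higher and 7 lower, with a median of -0.04, where 7.26% of all genes tested were higher and 6.09% lower. Cacna1f was again lower (-0.22). Guca1a was at 61.7 FPKM in KO retina against 45.2 FPKM in control retina at that age (0.44), on the side of the cone genes, and Guca1b at 4.90 FPKM in KO retina against 7.09 FPKM in control retina (-0.46), the opposite side from P14. All 19 lay above their P7 level at P14, as did 5940 of 13195 genes tested in KO and 5917 of 13281 in control retina. Beyond the bounds were 17 of the 19 in KO and 18 in control retina, where 28.7% and 27.2% of all genes were.

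Cone genes outside phototransduction were read from a list of 8. At P14, 1 was higher and 1 lower in KO retina, where 7.37% of all genes tested were higher and 8.18% lower. The list median was 0.07, with 6 of 7 tested genes above 0 and 1, Thrb, below, where 50.7% of all genes were above and 49.3% below. Ccdc136 was at 38.0 FPKM in KO retina against 34.2 FPKM in control retina (log2 difference 0.15), and Thrb, the thyroid hormone receptor gene that M opsin expression needs, was at 11.7 FPKM in KO retina against 13.5 FPKM in control retina (-0.19). At P7, Ccdc136 (0.26), Kcne2 (0.38), a potassium channel subunit gene, and Thrb (0.28) were higher and Cd59a (-0.36) was lower, with a list median of 0.01. Of all genes tested at P7, 7.26% were higher and 6.09% lower. Thrb thus stood on the same side as Arr3, Gnat2, Gnb3, Pde6c and Cnga3 at both ages. Of these genes, Arr3 and Gnat2 had bounds apart only at P14, Gnb3 and Pde6c only at P7, and Cnga3 at neither age. Opn1sw, Pde6h and Gngt2 lay above the control level in KO retina at both ages, and Cngb3 lay below it at both. Opn1mw stood on the opposite side from Thrb at both ages (0.05 at P14 and -0.26 at P7), within overlapping bounds. A link between Thrb and these genes was not tested. Rxrg, the retinoid receptor gene that acts with Thrb in cones, was at 5.70 FPKM in KO retina against 4.90 FPKM in control retina at P14, and at 7.65 FPKM in KO retina against 8.80 FPKM in control retina at P7, within overlapping bounds at both ages.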

How the data were processed

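Whole-retina libraries, 1 for each genotype and age, were sequenced as 36-base single ends after random-primed cDNA synthesis without a strand mark, per the labels' protocols. The deposited values are FPKM per gene with bounds and a status, made by the authors on the mm9 build, with Cufflinks 2.1.1 among the programs named, besides TopHat2 2.0.8b and CASAVA 1.8.2, per the submitters' processing notes. No source used here gives the annotation or the options. The files list 23021 loci. Rows of 1 symbol were summed (251 symbols, none of them a cone gene), and failed values (5 to 8 loci per library) were left out. All 40 values of the cone genes had an OK status. File starts count from 0: lengths matched RefSeq for 8023 of 19838 symbols when read so and for 513 when read from 1, so 1 was added to each start. With bounds taken as 2 standard deviations, counts worked back from low loci were whole (tolerance 0.1) in 22.8% to 26.1% of cases, so reads were not recovered and no count test was run. The bounds treat amplified reads as independent molecules.

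Genes at 1 FPKM or more in either library were compared by non-overlap of bounds, by 1.5-fold and by median, on log2(FPKM + 1). limma 3.58.1 (R 4.3.3) fitted genotype and age over the 4 libraries where a gene reached 1 FPKM in 2 or more, with a trended variance and p-values adjusted by Benjamini-Hochberg over all genes. Rules and fit were checked on simulated data, with counting error only for the bounds and additive effects for the fit. Such data follow the assumptions of the rules and fit, so the check does not show how they perform on these libraries. The samples may share more than their labels say, so p-values measure only the spread between these libraries. Alternatives were a pseudocount of 0.1 FPKM, a TPM scale, median-ratio scaling, no floor, no short loci and no variance trend. The middle of the bounds in place of the FPKM, and the motif TAATC, were chosen after seeing the data. The cone genes and lists were chosen with earlier results of these data known. Named genes were the 10 cone genes, their rod counterparts, up to 4 members of other lists with the highest mean among those with separate bounds, and the nearest profiles. Rxrg, Cacna1f, Mef2c and the pineal markers were picked for the text after their values were seen. Promoters were searched on both strands. The ratio of 1 further cone and rod pair is not reported here.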

Additional observations from a re-analysis of the deposited data

Results flagged for a closer look

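For 4 genes the KO libraries stood on opposite sides of the controls at the ages, with bounds apart at 1 of the ages, and the difference between the ages was not tested. Arr3 had a log2 difference of -0.62 at P14 (bounds apart) and 0.10 at P7. Gnat2 had -0.14 at P14 (bounds apart) and 0.22 at P7. Gnb3 had -0.03 at P14 and 0.27 at P7 (bounds apart), and Pde6c had -0.08 at P14 and 0.33 at P7 (bounds apart). Of all genes, 9.99% had such a switch of side in either direction, and 5.69% had it in the direction of these 4, higher in the KO library at P7 and lower in it at P14.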

How the results depend on the processing

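No paired analysis was possible because each group had 1 library, and no library could be left out of a comparison for the same reason. Over the alternatives tried, 0 of the reported results turned its direction, and 62 of 66 recomputed counts, medians and shares stayed within 1.5 times the reported count or within the spread of the bounds. Among recomputed log2 differences of single cone genes, 141 counted as the same and 19 as moved, 12 of the latter with median-ratio scaling. Median-ratio scaling, which shifts all genes by 0.13 (log2) between the ages in either genotype, gave a median age difference of the cone genes of 0.90 in KO and 1.33 in control retina. The middle of the bounds in place of the FPKM gave an Opn1mw share of 39.1% in the KO and 41.5% in the control library at P14. The limma age calls numbered 7 rather than 8 without a floor and likewise on a TPM scale, and the genotype calls numbered 0 throughout. Over all genes, those genotype calls numbered 34, of which 7 were higher and 27 lower, 2, both higher, with no floor, and 31, all lower, without short loci. Calls by bounds numbered 5 rather than 4 at P14 on a TPM scale. For age in KO retina they numbered 7 on a TPM scale and 9 with median-ratio scaling rather than 8, and in control retina 10 with median-ratio scaling rather than 8. Opn1mw at P7 and both channel genes had low levels and wide bounds, which limits what can be told apart.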

Other observations

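Photoreceptor transcription factors were read from a list of 13. In both genotypes 4 were higher and 9 lower at P14 than at P7, where 7 cone phototransduction genes were higher. Of all genes tested, 28.7% were higher and 39% lower in KO retina, and 27.2% and 37.3% in control retina. Between the genotypes, 2 factors were higher and 2 lower in KO retina at P14 (7.37% and 8.18% of all genes). At P7, 4 were higher and 0 lower (7.26% and 6.09%). Crx, the homeodomain factor of both photoreceptor types, was at 369 FPKM in KO retina against 365 FPKM in control retina at P14, within overlapping bounds, and at 540.2 FPKM in KO retina against 502 FPKM in control retina at P7 (log2 difference 0.11, bounds apart). Otx2, which acts upstream of Crx, was at 105 FPKM in KO retina against 114 FPKM in control retina at P14, within overlapping bounds, and at 289 FPKM in KO retina against 261 FPKM in control retina at P7 (0.15, bounds apart). Nrl, which directs photoreceptors to the rod fate, was at 1231 FPKM in KO retina against 1098 FPKM in control retina at P14 (0.16, bounds apart) and within overlapping bounds at P7. The 2 factors lower in KO retina at P14 were Thrb and Mef2c, the latter at 4.19 FPKM in KO retina against 6.01 FPKM in control retina (-0.43). Onecut1, a factor of horizontal cells and early cones, was at 6.40 FPKM in KO retina against 4.26 FPKM in control retina at P7 (0.49, bounds apart).

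Among 9209 genes outside the set at a mean of 5 FPKM or more, the profile over the 4 libraries nearest to the median of the cone genes was that of 1700025K23Rik, at a root mean square distance of 0.03 on the log2 scale, followed by Plekha8, Rnf13, Stx3 and Vamp4. Nearest to Opn1mw was Gnat1, at a distance of 0.13, and then 2610034M16Rik and Pvalb. Nearest to Opn1sw were Haus8, Nbl1 and Bhlhe40, and nearest to Arr3 were Synpr, Sirt4 and the pigment epithelium gene Rdh5, at 0.09, 0.10 and 0.10. With 4 libraries many genes share any given profile, so these names describe the libraries only. Of the 3 listed markers of the pineal gland, which shares photoreceptor genes, Aanat and Tph1 were found and reached at most 1.11 FPKM in the 4 libraries.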
